A study of Mus musculus with 12 samples.

Results

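The cytoplasmic ribosomal protein genes were taken as the protein-coding mouse genes whose symbol is Rps or Rpl followed by a number and at most 1 letter, together with Rplp0, Rplp1, Rplp2 and Rpsa. Symbols and gene classes came from the GENCODE vM21 annotation of GRCm38, pseudogenes and the Rps6k kinases were left out, and 79 of the 29522 genes in the files met the rule. They comprised 31 genes of the small subunit, 45 of the large subunit and the 3 genes of the ribosomal stalk, on 19 chromosomes, with 14 of them on chromosome 7. RNA had been sequenced from T cells of wild-type C57BL/6J mice, isolated with magnets as naive CD4+ cells from the spleen, activated through CD3 and CD28 and grown in a medium for Th17 differentiation. The 4 groups, with 3 libraries each, were cells given ILA at 200 uM, cells given GSK805 at 0.5 uM, cells given GSK805 at 0.5 uM together with ILA at 200 uM, and cells given vehicle. ILA is taken to mean indole-3-lactic acid, a product of tryptophan breakdown by gut bacteria and GSK805 is a synthetic small-molecule inhibitor. All 4 groups thus carried the same genotype, activation and Th17 medium, and the cultures are models of Th17 cells made in vitro. The labels call the replicates biological but name no animals, so p-values below measure the spread between these libraries.

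Ribosomal proteins clothe the ribosomal RNA of both subunits and are made in matched amounts, and their messenger RNAs rank among the most abundant of a dividing cell. Most of these messengers start with a C followed by a run of pyrimidines, the 5′ terminal oligopyrimidine (TOP) motif, through which the kinase mTORC1 and the protein LARP1 set their translation and stability. Activated T cells enlarge and make many new ribosomes before they divide.

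The start-site sequence of 7 genes is shown because the TOP run is the feature by which these genes are known to be controlled together. These 7 do not cover every response described below, and Rps2 and Rps27l are not among them. Each line gives 60 bases before and 30 bases from the annotated start, 5′ to 3′, from RefSeq on GRCm38.p6. Capitals mark a pyrimidine run that begins with C within 5 bases of the start, or the ETS-type motif CCGGAAG. Rpl22 is shown as a promoter without such a run.
Rps6 (chr4:86857338-86857427, minus strand): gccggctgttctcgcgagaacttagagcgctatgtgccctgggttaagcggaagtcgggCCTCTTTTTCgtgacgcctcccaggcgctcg
Rps10 (chr17:27635215-27635304, minus strand): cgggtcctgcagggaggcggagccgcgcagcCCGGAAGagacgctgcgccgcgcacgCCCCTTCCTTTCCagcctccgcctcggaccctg
Rps27 (chr3:90213619-90213708, minus strand): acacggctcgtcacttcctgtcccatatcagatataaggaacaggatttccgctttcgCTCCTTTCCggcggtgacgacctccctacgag
Rpl28 (chr7:4792905-4792994, plus strand): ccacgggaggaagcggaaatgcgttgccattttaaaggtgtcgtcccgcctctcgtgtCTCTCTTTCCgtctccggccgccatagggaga
Rpl38 (chr11:114668520-114668609, plus strand): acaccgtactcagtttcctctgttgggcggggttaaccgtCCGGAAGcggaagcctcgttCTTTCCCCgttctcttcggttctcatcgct
Rplp2 (chr7:141447591-141447680, plus strand): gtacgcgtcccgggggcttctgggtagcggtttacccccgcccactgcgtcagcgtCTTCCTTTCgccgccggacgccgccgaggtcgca
Rpl22 (chr4:152325666-152325755, plus strand): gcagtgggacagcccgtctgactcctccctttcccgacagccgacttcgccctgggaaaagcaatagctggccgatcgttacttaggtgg

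RefSeq promoter entries were found for 59 of the 79 genes, with 71 promoters among them. A C followed by at least 4 pyrimidines, within 5 bases of the annotated start and on the sense strand, was present in 42.3% of these promoters, against 18.3% of all 32851 promoters in the table. The ETS-type motif CCGGAAG, searched on both strands over 300 bases, was present in 36.6% against 8.86%, and the GC box GGGCGG in 57.7% against 35.7%. The E box CACGTG stood at 11.3% against 7.15%, and the YY1-type motif AAGATGGCG at 7.04% against 1.40%. These motifs can overlap, and a match is a description of the letters in the window. Annotated starts can lie a few bases from the start used in these cells, which moves a run out of so narrow a window.

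As deposited, the 79 genes held 11.4% to 14.3% of all FPKM in a library, and 42 to 49 of them were among its 100 most abundant genes. FPKM, the unit of the files, is fragments scaled to gene length and to the number of reads in the library, so it gives a share of a library and not an amount per cell, and in bulk RNA fewer cells of a type and less RNA per cell cannot be told apart. Averaged over the 12 libraries and per length, Rplp1, Rplp0 and Rps15 ranked highest, at 2440, 2308 and 1534 FPKM. Rplp1 and Rplp0 belong to the stalk, which recruits elongation factors to the ribosome, and Rps15 sits near the decoding site of the small subunit. All but 7 of the others lay between 98.1 FPKM (Rpl22) and 1491 FPKM (Rpl36). Of these 7, Rps27l averaged 49.0 FPKM, Rpl21 40.5 FPKM, Rpl13a 12.8 FPKM, Rps10 7.10 FPKM and Rpl24 1.51 FPKM. Rpl39l and Rpl3l, paralogs known mainly from testis and from skeletal muscle and heart, averaged 0.355 and 0.271 FPKM. Genes were tested where the mean of some group reached 1 FPKM, as it did for 77 of the 79, all but Rpl39l and Rpl3l. Rpl39l averaged 0.281, 0.510, 0.458 and 0.170 FPKM with ILA, GSK805, both compounds and vehicle, and Rpl3l 0.230, 0.247, 0.180 and 0.426 FPKM, from 0 to 28 reads a library.

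Between-gene levels carry a limit. Near-identical copies, genes that share at least 25% of their runs of 50 bases with a ribosomal protein gene, numbered 372 and touched 69 of the 79 genes; the sources used here do not say how the authors assigned reads between such copies. For 10 of these genes the copies together had more FPKM than the gene. Rps10, a small-subunit protein near the messenger entry channel, is the extreme case: its gene (ENSMUSG00000052146, chr17:27630418-27636669) had 7.10 FPKM, while the processed pseudogene Rps10-ps2 (ENSMUSG00000099764) had 788 ± 20.4 FPKM with ILA, 541 ± 21.1 with GSK805, 649 ± 14.3 with both compounds and 662 ± 45.4 with vehicle (SD, n = 3 each). Rpl24 at 1.51 FPKM stood beside 2 copies with 25.9 FPKM together, and Rpl21 at 40.5 FPKM beside 32 copies with 271 FPKM together. The values of Rps10, Rpl21 and Rpl24 are therefore uncertain. The same holds for the other genes exceeded by their copies, which were Rpl6, Rpl9, Rpl23, Rpl29, Rpl34, Rps7 and Rps12. Rpl23, for instance, had 466 FPKM beside 1051 FPKM in its copy, and Rpl29 had 306 FPKM beside 901 FPKM. Rpl13a, at 12.8 FPKM, stood beside a copy with 12.6 FPKM. In each comparison below the number of genes called stayed within 1.5 times when every gene was summed with its copies, a setting added after the data were seen.

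GSK805 alone lowered nearly the whole set by a small, even amount. The 79 genes held 11.4%, 11.6% and 11.7% of all FPKM in the GSK805 libraries, against 13.4%, 14.3% and 13.8% in the vehicle libraries. Each GSK805 library was below each vehicle library. With ILA the share was 13.8%, 13.4% and 13.7%, and with both compounds 12.1%, 12.7% and 12.8%. The ILA libraries overlapped the vehicle libraries, whereas those with both compounds lay between the GSK805 and the vehicle libraries. The small-subunit genes made up 38.4% to 38.6% of that share with ILA, 37.8% to 38.1% with GSK805, 38.7% to 38.8% with both compounds and 38.0% to 38.3% with vehicle; the libraries with both compounds lay above all others, by little, and those with GSK805 overlapped those with vehicle. The total of FPKM itself ran from 306300 to 326363 per library and was lowest in the GSK805 libraries. Counted in recovered reads instead of FPKM, the genes took 6.01% of reads with GSK805 and 7.55% with vehicle.

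**Figure D1:**
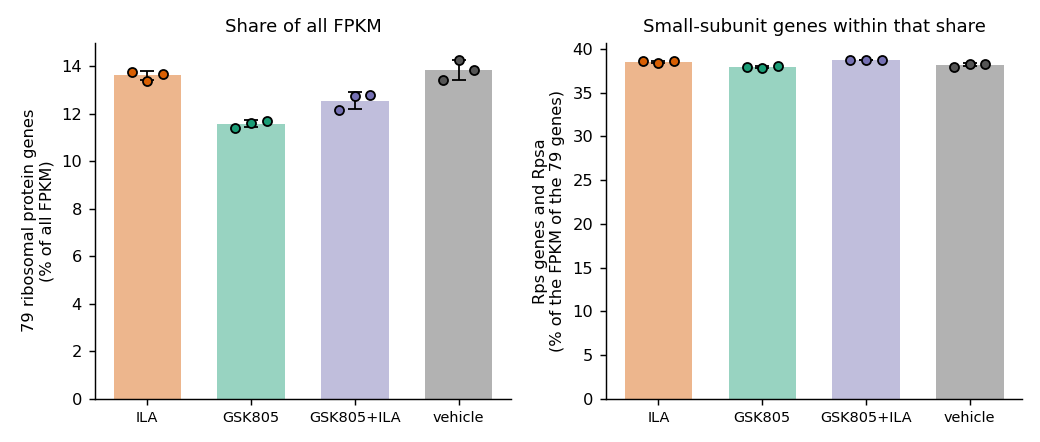
Left, share of all FPKM (percent) held by the 79 ribosomal protein genes; right, share of that FPKM (percent) held by the small-subunit genes. Bars are means, whiskers SD and points the 3 libraries of each group, from ILA at the left to vehicle at the right. The GSK805 libraries sit between 11.4% and 11.7%, below all vehicle libraries (13.4% to 14.3%), while the right panel runs from 37.8% to 38.8% over the 12 libraries.

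Of the 77 tested genes, 75 were called lower with GSK805 than with vehicle and 0 higher (limma, Benjamini-Hochberg adjusted p below 0.05 over 13511 genes). Among all tested genes 7.08% were called lower and 15.7% higher. The same 75 had GSK805 libraries entirely below the vehicle libraries, a pattern found in 12.8% of all tested genes, while 25.8% showed the reverse pattern. The median log2 fold change of the 77 genes was -0.33, which is 1.26-fold lower on the log2(FPKM + 1) scale, against 0.05 for all tested genes, and the range was narrow, from -0.54 (Rps10) to -0.19 (Rps2). By subunit the medians were -0.33 for the 43 tested large-subunit genes, -0.34 for the 31 small-subunit genes and -0.31 for the stalk. The calls held widely: 71 of the 75 were made again in each of the 12 fits that left out 1 library. Quantile normalization, which gives every library the same distribution of values, gave 42 lower and 0 higher genes and a median of -0.14. Rps2, Rpl8 and Rpl7a then stood between 0.01 and 0.04. Of all 13511 tested genes, 1045 were lower and 1326 higher after quantile normalization.

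The stalk genes show the size of the difference. Rplp0 (ENSMUSG00000067274, chr5:115559467-115563727), the base of the stalk, had 2027, 2113 and 2010 FPKM with GSK805, against 2445, 2631 and 2535 FPKM with vehicle (log2 fold change -0.31, SE 0.03, limma adjusted p = 9.4e-05). Rplp1 (ENSMUSG00000007892, chr9:61913284-61914542), which forms a dimer with Rplp2 on that base, had 2212, 2289 and 2319 FPKM with GSK805, against 2615, 2947 and 2672 FPKM with vehicle (-0.27, SE 0.04, adjusted p = 0.0011). All GSK805 libraries lay under all vehicle libraries for both genes, and for Rplp2 as well, at 286, 303 and 290 FPKM with GSK805 against 353, 394 and 380 FPKM with vehicle (-0.36, SE 0.06, adjusted p = 0.0012). After quantile normalization the calls of Rplp0 and Rplp1 were lost (adjusted p = 1.00 and 0.508) and that of Rplp2 was kept.

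Among small-subunit genes, Rps6, the ribosomal substrate of the S6 kinases downstream of mTORC1, had 887, 925 and 894 FPKM with GSK805, against 1071, 1169 and 1168 FPKM with vehicle (log2 fold change -0.33, SE 0.04, limma adjusted p = 1.5e-04). Rps19, the gene most often mutated in human Diamond-Blackfan anaemia, had 101, 101 and 97.8 FPKM with GSK805, against 132, 142 and 131 FPKM with vehicle (-0.43, SE 0.05, adjusted p = 1.5e-04). Rps26, which lines the messenger exit channel, had 606, 646 and 613 FPKM with GSK805, against 782, 844 and 829 FPKM with vehicle (-0.40, SE 0.04, adjusted p = 1.0e-04). The groups did not overlap for any of these 3 genes, and their calls were kept under every alternative tried. Other large falls of this subunit were those of Rps28 and Rps10, at -0.43 and -0.54. Rps10 had 5.80, 5.82 and 6.18 FPKM with GSK805, against 9.35, 8.27 and 9.76 FPKM with vehicle, and summed with its copies it was lower by a smaller amount (-0.31, adjusted p = 9.1e-04).

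At the other end, Rps2 was lowered least among the called genes (757, 787 and 780 FPKM with GSK805, against 843, 941 and 872 FPKM with vehicle; log2 fold change -0.19, SE 0.04, adjusted p = 0.0046). Rpsa, which also encodes a laminin-binding precursor at the cell surface, fell by 0.36 (adjusted p = 2.0e-04) and Rps27 by 0.24 (adjusted p = 0.0067). Rps29 was called at -0.33 (adjusted p = 0.0169), but not without vehicle replicate 2 (adjusted p = 0.0624), vehicle replicate 3 (0.0518) or GSK805 replicate 1 (0.0581). Rps21 was the only small-subunit gene not called, at 225, 174 and 232 FPKM with GSK805 and 209, 271 and 284 FPKM with vehicle (-0.27, SE 0.13, adjusted p = 0.15). Its groups overlapped, and it would have passed without vehicle replicate 1 (adjusted p = 0.0221).

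Large-subunit genes fell by a like amount. Rpl5, which with Rpl11 carries the smallest ribosomal RNA and can bind the p53 regulator Mdm2, had 346, 343 and 360 FPKM with GSK805, against 410, 443 and 433 FPKM with vehicle (log2 fold change -0.29, SE 0.04, limma adjusted p = 3.2e-04). Rpl11 had 205, 206 and 206 FPKM with GSK805, against 247, 266 and 258 FPKM with vehicle (-0.32, SE 0.04, adjusted p = 4.3e-04). Rpl22, which mouse αβ T cells need to develop, had 82.5, 77.5 and 75.2 FPKM with GSK805, against 97.7, 106 and 105 FPKM with vehicle (-0.39, SE 0.06, adjusted p = 6.6e-04). None of these groups overlapped. Rpl3, which reaches towards the peptidyl transferase centre, and Rpl10, which closes the peptidyl site late in assembly, fell by 0.26 and 0.29 (adjusted p = 0.0018 and 8.8e-04). Rpl38, Rpl39 and Rpl41, small proteins of the large subunit, fell by 0.32, 0.41 and 0.32 (adjusted p = 6.0e-04, 0.0015 and 0.0013).

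Rpl13a, which in human monocytes also belongs to a complex that silences inflammatory messengers, had 12.3, 9.56 and 11.4 FPKM with GSK805, against 14.2, 18.4 and 16.2 FPKM with vehicle (log2 fold change -0.51, SE 0.12, limma adjusted p = 0.0092). Its groups did not overlap. Rpl21 was called at -0.45 (adjusted p = 0.0052), but not when summed with its 32 copies (0.03, adjusted p = 0.967). Rpl7a and Rpl8 had the smallest falls of this subunit, at -0.20 and -0.19, and Rpl7a was not called without vehicle replicate 2, GSK805 replicate 1 or GSK805 replicate 2 (adjusted p = 0.0669, 0.0638 and 0.0507). Rpl24, on 19 to 50 reads per library, was not called (-0.21, adjusted p = 0.49), while the sum with its copies was (-0.41, adjusted p = 0.0012).

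**Figure D2:**
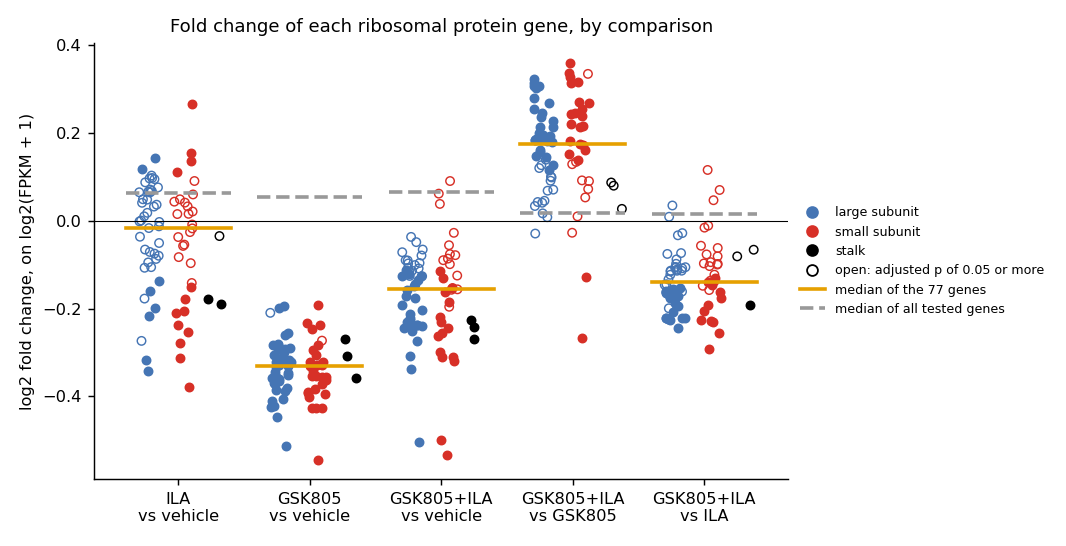
Log2 fold change on log2(FPKM + 1) of the 77 tested genes in 5 comparisons, with 1 point per gene in blue (large subunit), red (small subunit) or black (stalk), filled where the adjusted p is below 0.05. Orange lines are the medians of the 77 genes and dashed grey lines those of all tested genes; with GSK805 against vehicle all points lie below 0, and with both compounds against GSK805 73 of 77 lie above it.

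With ILA alone the set, as deposited, had no common direction. Against vehicle, 6 genes were higher and 17 lower with ILA, and 54 did not pass the test; 33.9% of all tested genes were called higher and 24% lower. Libraries did not overlap for 8 genes that were higher (36.5% of all tested genes) and 19 that were lower (26.3%). The median log2 fold change was -0.02, with 0.06 for all tested genes. These counts depend on the scaling. After centring each library on its median gene, which put the median of all tested genes at -0.07, a shift of the whole scale by over 0.1, 1 gene was higher and 40 lower, and after quantile normalization 29 were higher and 13 lower. Of all 13511 tested genes, 3271 were higher and 4723 lower after median centring, and 3590 and 4172 after quantile normalization. The count of higher ribosomal protein genes was also set by single libraries: it was 1 without ILA replicate 1, 2 without ILA replicate 3, 1 without vehicle replicate 1 and 12 without vehicle replicate 2. The count of lower genes was 11 without ILA replicate 2. In all, 12 of the 23 calls were made again in every fit without 1 library; 57.9% of all tested genes were called in either direction.

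Of the 6 genes higher with ILA, 5 were Rps15a, Rps19, Rps15, Rpl22 and Rpl11, at log2 fold changes of 0.16, 0.14, 0.11, 0.14 and 0.12 with limma adjusted p-values from 0.023 to 0.044. Each of them lost its call without vehicle replicate 1 and without ILA replicate 1, among others, with adjusted p-values up to 0.173 (Rpl22 without ILA replicate 1), and Rpl11 turned to -0.02 after median centring.

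Of the genes lower with ILA, Rps27l had the largest change. Rps27l (ENSMUSG00000036781, chr9:66946086-66949516), a paralog of Rps27 that p53 is known to induce, had 47.0, 43.7 and 44.9 FPKM with ILA, against 62.2, 58.7 and 56.2 FPKM with vehicle (log2 fold change -0.38, SE 0.06, limma adjusted p = 2.7e-04). The ILA libraries lay below the vehicle libraries. Rps27 itself had 485, 437 and 469 FPKM with ILA and 441, 466 and 442 FPKM with vehicle, which overlapped (0.04, adjusted p = 0.48). Rps2, for which PRMT3 is the known arginine methyltransferase, had 745, 742 and 761 FPKM with ILA, against 843, 941 and 872 FPKM with vehicle (-0.24, SE 0.04, adjusted p = 2.4e-04), and Rps27a, which is made as a fusion with ubiquitin, had 288, 281 and 297 FPKM with ILA against 326, 368 and 340 FPKM with vehicle (-0.25, SE 0.05, adjusted p = 8.6e-04). ILA and vehicle libraries did not overlap for either gene. Rps29 fell by 0.31, Rps20 by 0.21, Rps25 by 0.21 and Rpl34 by 0.16 (adjusted p = 0.0079, 0.0026, 0.0115 and 0.012); these 4, like Rps27l, Rps2 and Rps27a, kept their calls under every alternative.

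Rpl21 and Rpl13a were called at -0.32 and -0.34 (adjusted p = 0.0109 and 0.0248), but summed with their copies they did not pass (adjusted p = 0.688 and 0.0598), and Rpl13a also failed without vehicle replicate 2 or 3 or ILA replicate 2 (adjusted p from 0.0563 to 0.0992). The calls of Rplp1 (-0.18, adjusted p = 0.0037), Rpl10 (-0.22, adjusted p = 0.0013) and Rpl38 (-0.20, adjusted p = 0.0029) held in every fit without 1 library but were lost after quantile normalization. Rplp1 had 2456, 2377 and 2442 FPKM with ILA, against 2615, 2947 and 2672 FPKM with vehicle, with no overlap. Rplp2 was called at -0.19 (adjusted p = 0.0137), though not without vehicle replicate 2 or ILA replicate 2 (adjusted p = 0.0558 and 0.0565). Rplp0 was not called: it had 2452, 2516 and 2460 FPKM with ILA and 2445, 2631 and 2535 FPKM with vehicle, which overlapped, and it stood at -0.03 as deposited and at 0.31 after quantile normalization. Rps10 was called lower (-0.28, adjusted p = 0.012), whereas its pseudogene Rps10-ps2 was higher (0.25, adjusted p = 9.3e-04), and the gene summed with its copies was higher (0.21, adjusted p = 0.0021). The lower call of Rps10 was also lost without vehicle replicate 3 or ILA replicate 2 (adjusted p = 0.051 and 0.0526). The direction of Rps10 with ILA thus differed between the gene alone and the sum.

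**Figure D3:**
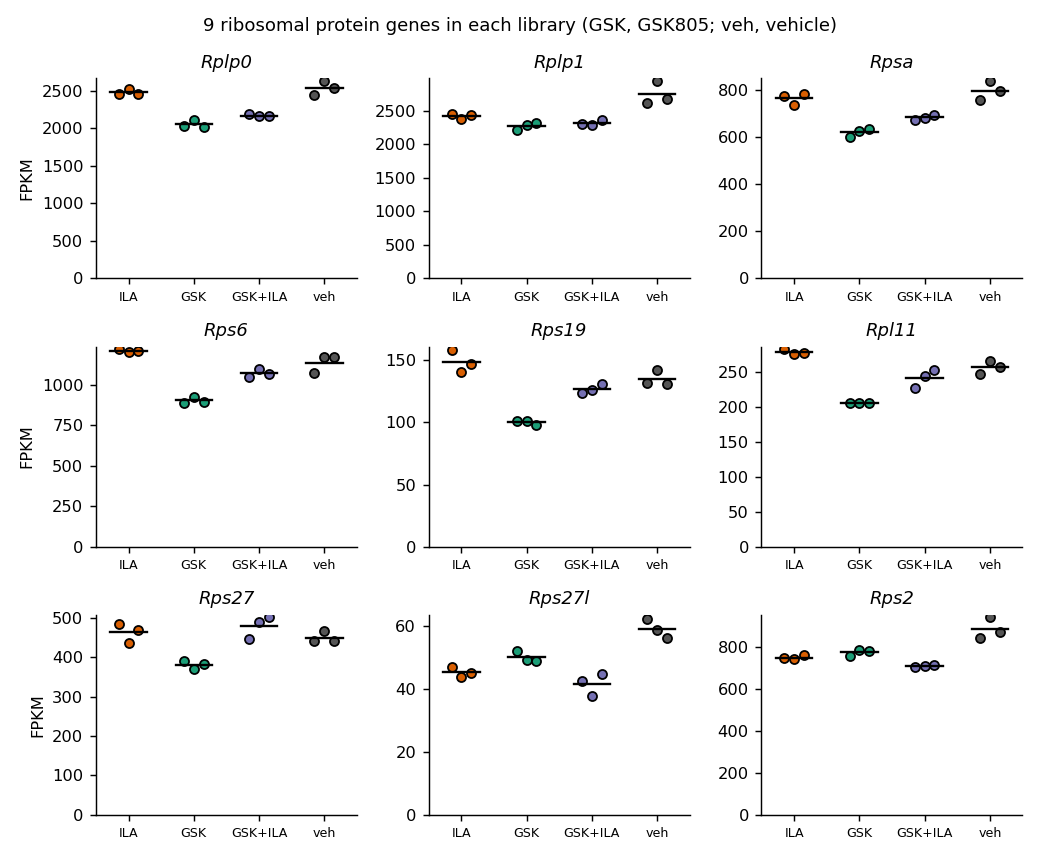
FPKM of 9 ribosomal protein genes in each of the 12 libraries, with ILA at the left of each panel, then GSK805, both compounds and vehicle; points are libraries, lines are means and each vertical axis starts at 0. In Rplp0, Rps6, Rps19 and Rpl11 the GSK805 points are the lowest, whereas in Rps27l and Rps2 the mean with both compounds is.

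With both compounds most genes lay between GSK805 alone and vehicle: by their fitted log2 fold changes 73 of 77 were above GSK805 and 74 below vehicle. Against vehicle 45 of 77 genes were lower and 0 higher, where 20.3% of all tested genes were lower and 31.8% higher, or 52.1% in all. The libraries did not overlap for 44 lower genes (23.7% of all tested genes) and for 0 higher genes (35.5%). The median log2 fold change was -0.16, against 0.06 for all tested genes. Here too the scaling mattered, with 73 genes lower after median centring, and 16 lower and 4 higher after quantile normalization. Of all 13511 tested genes, 4437 were lower after median centring, and 3618 were lower and 3314 higher after quantile normalization. Of the 45 calls, 33 were made again in every fit without 1 library.

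Rps27l and Rps2 were called lower with each compound alone and had their lowest means with both, although the call of Rps27l with GSK805 alone (-0.23, adjusted p = 0.0195) was lost without vehicle replicate 1, GSK805 replicate 2 or GSK805 replicate 3 (adjusted p from 0.0601 to 0.0619). Rps27l had 42.4, 37.6 and 44.6 FPKM with both compounds, against 62.2, 58.7 and 56.2 FPKM with vehicle (log2 fold change -0.50, SE 0.06, limma adjusted p = 4.1e-05). Rps2 had 702, 708 and 716 FPKM with both compounds, against 843, 941 and 872 FPKM with vehicle (-0.32, SE 0.04, adjusted p = 3.3e-05). Neither gene's libraries overlapped. Rpl35 and Rps20 stood at -0.34 and -0.31 (adjusted p = 0.0021 and 2.1e-04). Rps10 and Rpl13a fell by 0.53 and 0.51 (adjusted p = 2.0e-04 and 0.0035), but Rps10 summed with its copies was not called (-0.06, adjusted p = 0.271). Rplp0, Rplp1 and Rplp2 fell by 0.23, 0.24 and 0.27 (adjusted p = 1.1e-04, 5.3e-04 and 0.0019), and these 3 calls were not kept under quantile normalization, where Rplp0 was called higher at 0.21 and Rplp1 stood at 0.10. Rps6, Rps19, Rps27, Rpl11, Rpl22, Rpl39 and Rpl41 did not pass, with log2 fold changes from -0.11 (Rpl41) to 0.09 (Rps27). Without vehicle replicate 1, Rps6, Rpl11 and Rpl41 would have passed as lower (adjusted p = 0.00486, 0.0451 and 0.0187). Rps21, Rps15 and Rpl8, at 0.06, -0.03 and -0.04, did not pass either. Rpl11 would also have passed without replicate 3 of the combination (0.0298), and Rps27 as higher without replicate 1 of it (0.0355).

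Set against GSK805 alone, most of the set was higher with both compounds. Of the 77 genes 48 were higher with both compounds than with GSK805 and 2 lower, where 22% of all tested genes were higher and 17.5% lower, and the median was 0.18 against 0.02 for all tested genes. The libraries did not overlap for 53 higher genes (28.2% of all tested genes) and 2 lower ones (23.9%). After median centring 28 genes were higher, where 2362 of all 13511 tested genes were. Rps19 had 124, 126 and 131 FPKM with both compounds, against 101, 101 and 97.8 FPKM with GSK805 (log2 fold change 0.34, SE 0.05, limma adjusted p = 2.1e-04), and Rps27 had 448, 489 and 501 FPKM with both compounds against 391, 369 and 383 FPKM with GSK805 (0.33, SE 0.05, adjusted p = 3.8e-04). The libraries with both compounds were higher for both genes, and their calls were kept under every alternative, as was that of Rpl17 (0.32, adjusted p = 4.5e-04). Rps21 stood at 0.33 without passing (adjusted p = 0.0556), and would have passed without vehicle replicate 1 (0.019), vehicle replicate 3 (0.0488) or GSK805 replicate 3 (0.0427). Rpl10a and Rps25 hardly differed, at 0.02 and -0.03 (adjusted p = 0.76 and 0.75).

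The 2 lower genes were again Rps27l (-0.27, SE 0.06, adjusted p = 0.0050) and Rps2 (-0.13, SE 0.04, adjusted p = 0.0202). The call of Rps27l was kept under every alternative, and that of Rps2 was lost without GSK805 replicate 2 or 3 and without replicate 1 or 2 of the combination (adjusted p from 0.0539 to 0.0713). None of the stalk genes passed in this comparison: Rplp0, Rplp1 and Rplp2 stood at 0.08, 0.03 and 0.09. Rplp0 had 2182, 2160 and 2160 FPKM with both compounds, against 2027, 2113 and 2010 FPKM with GSK805, which did not overlap, and its adjusted p was 0.067; it would have passed without vehicle replicate 1, vehicle replicate 2 or GSK805 replicate 2 (adjusted p = 0.0353, 0.0409 and 0.0471).

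The changes with ILA correlated across genes in the presence and absence of GSK805, but were higher in its presence for all 77 genes, with a median log2 fold change of 0.18 with GSK805 and -0.02 without it. The 2 ILA comparisons, ILA against vehicle and both compounds against GSK805, rest on 4 separate groups. All 6 genes higher with ILA alone were higher with both compounds than with GSK805, among them Rpl11, Rpl22, Rps15, Rps15a and Rps19. None of the 17 genes lower with ILA alone was, and 2 of them were lower. Of the 54 genes not called with ILA alone, 42 were higher. Across the 77 genes the 2 sets of log2 fold changes had a Pearson r of 0.79 and a Spearman rho of 0.77, as a description, since genes measured in the same libraries are not independent replicates. For GSK805 against vehicle and both compounds against ILA the same measures were 0.35 and 0.38.

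In the presence of ILA, fewer of the genes were lower with GSK805. Both compounds against ILA gave 32 lower genes and 0 higher, where 8.64% of all tested genes were lower and 9.92% higher. The median was -0.14, against 0.02 for all tested genes. The libraries did not overlap for 49 genes, all lower (17.2% of all tested genes, with 20% higher). The count was 14 without replicate 1 of the combination and 17 without ILA replicate 1, and quantile normalization gave 18 lower and 1 higher with a median of -0.06. Of all 13511 tested genes, 1199 were lower and 1305 higher after quantile normalization. Rps26 had the largest fall, at 655, 705 and 713 FPKM with both compounds, against 854, 843 and 841 FPKM with ILA (log2 fold change -0.29, SE 0.04, limma adjusted p = 9.1e-04). Rplp0 had 2182, 2160 and 2160 FPKM with both compounds, against 2452, 2516 and 2460 FPKM with ILA (-0.19, SE 0.03, adjusted p = 0.0022), and Rpl11 had 227, 244 and 253 FPKM with both compounds against 282, 276 and 277 FPKM with ILA (-0.21, SE 0.04, adjusted p = 0.0060). In none of the 3 did the libraries overlap; the calls of Rps26 and Rpl11 were kept under every alternative and that of Rplp0 under all but quantile normalization. Rpl13 and Rps15a fell by 0.25 and 0.23 (adjusted p = 0.0022 and 0.0127). At the other end Rps29, Rps21, Rps27, Rpl21 and Rps27a stood from 0.12 to -0.01 and did not pass.

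The difference between the 2 GSK805 effects was tested as an interaction, the GSK805 effect with ILA minus that without it. It was positive for all 77 genes and for 5789 of the 13511 tested genes, with a median of 0.20 against -0.05 for all tested genes. These genes share their libraries, so the 77 are not independent observations. Their median log2(FPKM + 1) ran over 8.63 to 8.79 in the libraries with both compounds and 8.73 to 8.86 with ILA. With GSK805 it ran over 8.53 to 8.57, and with vehicle over 8.79 to 8.88. The interaction was called for 29 genes, all positive, where 5.15% of all tested genes were called positive and 8.7% negative. This count was the least firm of those reported here: 5 of the 29 calls were made again in every fit without 1 library. Without 1 library it was 6 or 9 (GSK805 replicate 1 or 2), 6 or 5 (replicate 2 or 3 of the combination), 6 or 17 (ILA replicate 2 or 3) and 12 or 7 (vehicle replicate 2 or 3). It also went down to 8, with 1 gene negative, after quantile normalization. Of all 13511 tested genes, 720 were then called positive and 846 negative. Rps27a was the gene whose call was kept under every alternative (0.34, SE 0.07, limma adjusted p = 0.0092): it had 276, 289 and 295 FPKM with both compounds and 288, 281 and 297 FPKM with ILA, which overlapped, but 257, 272 and 279 FPKM with GSK805 against 326, 368 and 340 FPKM with vehicle, which did not. Rps3, a small-subunit protein with a known part in DNA repair, had an interaction of 0.24 (adjusted p = 0.0106), lost only after quantile normalization (adjusted p = 0.0750). Rpl10 and Rpl38 had 0.26 and 0.29 (adjusted p = 0.0188 and 0.0146), also lost only there. The largest estimates, for Rpl21, Rps29 and Rps28 (0.46, 0.45 and 0.41), were called but each lost its call in 8 of the 12 fits without 1 library. Rpl7a and Rpl36a had the smallest, 0.03 and 0.08 (adjusted p = 0.83 and 0.39).

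**Figure D4:**
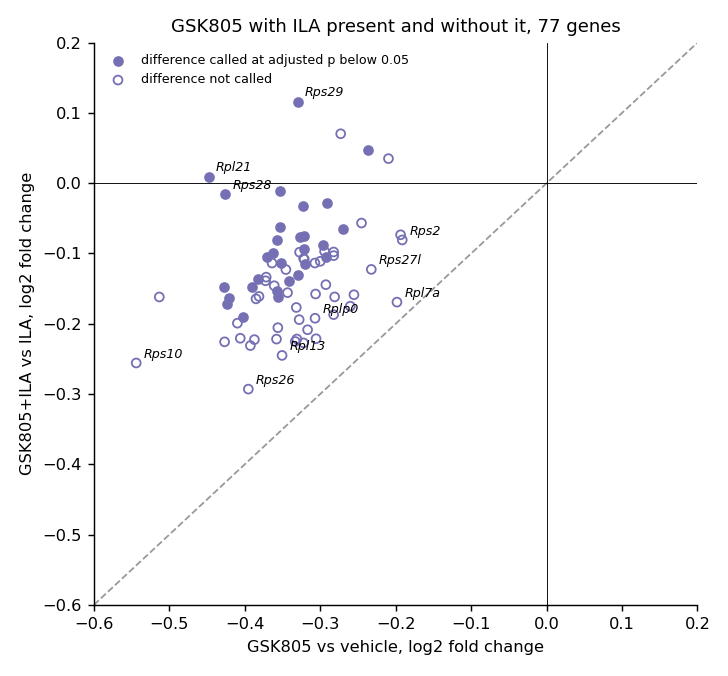
For each of the 77 tested genes, the log2 fold change of GSK805 against vehicle (horizontal) and of both compounds against ILA (vertical); the dashed line marks equal values and filled points have an interaction with an adjusted p below 0.05. All points lie above the line, and all lie left of 0 on the horizontal axis.

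Genes with and without the pyrimidine run at the annotated start had overlapping changes. With GSK805 the 28 tested genes with a run had a median log2 fold change of -0.35 and the 29 without -0.32, ranging from -0.54 to -0.19 and from -0.43 to -0.21. With both compounds against GSK805 the medians were 0.16 and 0.18. Of the 7 genes with printed sequences, Rps6, Rps27, Rpl28 and Rpl22 rose in that comparison, Rpl22 having no run in its window. Rps10, Rpl38 and Rplp2 did not pass, though Rpl38 would have without replicate 1 of the combination (adjusted p = 0.0181). Rps10 summed with its copies was called higher there (0.24, limma adjusted p = 0.0016).

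Of 4 tested genes of ribosomal proteins whose symbols lie outside the rule, 3 were lower and 0 higher with GSK805. Of all tested genes 7.08% were lower and 15.7% higher. Rps3a1, Fau, which encodes a fusion with the small-subunit protein S30, and Rack1, a signalling scaffold on the small subunit, fell by 0.31, 0.42 and 0.28 with GSK805 (adjusted p = 2.7e-04, 3.7e-04 and 8.9e-04); under quantile normalization only the call of Fau was kept. Of the paralogs, Rpl22l1 fell with GSK805, ILA and both compounds by 0.40, 0.53 and 0.46 (adjusted p = 9.4e-04, 1.8e-05 and 6.9e-05), while Rpl22 itself stood at 0.14 with ILA, a call that single libraries decided. Rpl7l1 and Rpl36al fell with ILA, by 0.29 and 0.85 (adjusted p = 8.7e-05 and 0.0039), and were not called with GSK805. Of 206 pseudogenes with an Rps or Rpl symbol 94 were tested, and 27 were lower and 0 higher with GSK805, with a median of -0.26. The 27 are 28.7% of those tested, where 7.08% of all tested genes were lower. Without vehicle replicate 2, 17 pseudogenes were lower. Reads of genes and of their copies cannot be told apart here.

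Other messengers known to carry a TOP motif fell with GSK805 in most cases. Of 22 such genes 15 were lower and 0 higher, with a median of -0.18 against 0.05 for all tested genes. The 15 are 68.2% of the list, where 7.08% of all tested genes were lower and 15.7% higher. Quantile normalization gave 8 lower and 2 higher of the 22. Eef1a1, the elongation factor that delivers transfer RNA, averaged 4261 FPKM with GSK805 and 4997 FPKM with vehicle (log2 fold change -0.23, adjusted p = 4.7e-04), and Eef1b2, its exchange factor, fell by 0.37 (adjusted p = 5.4e-04). Vim, which encodes vimentin, was highest, at 0.06 (adjusted p = 0.45). Snhg1 and Gas5, non-coding host genes of small nucleolar RNAs, fell by 0.51 and 0.24 (adjusted p = 2.0e-04 and 0.0037). With ILA 7 of the same 22 genes were higher and 12 lower. These are 31.8% and 54.5%, where 33.9% and 24% of all tested genes were higher and lower. Eef2, the translocase, and Eif3f, an initiation factor subunit, rose by 0.42 and 0.58 with ILA (adjusted p = 2.2e-07 and 1.6e-05), and Snhg1 and Npm1 fell by 0.99 and 0.54 (adjusted p = 1.0e-07 and 6.8e-07). After median centring 2 were higher and 13 lower with ILA. With both compounds 2 were higher and 11 lower, or 9.09% and 50%, where 31.8% and 20.3% of all tested genes were.

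Genes that build ribosomes were lower with ILA almost without exception. Of 34 genes of ribosome assembly and ribosomal RNA synthesis, 33 were lower and 1 higher with ILA (median -0.56), 5 lower and 1 higher with GSK805 (median -0.06), and 25 lower and 2 higher with both compounds (median -0.30). These are 97.1% and 2.94% with ILA, 14.7% and 2.94% with GSK805, and 73.5% and 5.88% with both compounds. Of all tested genes 24% were lower and 33.9% higher with ILA, 7.08% and 15.7% with GSK805, and 20.3% and 31.8% with both. Under the other scalings 32 or 33 of the 34 were lower with ILA and 2 to 9 with GSK805. The 5 lower with GSK805 became 1 without GSK805 replicate 1, GSK805 replicate 2 or vehicle replicate 3, 2 without vehicle replicate 1 and 3 without vehicle replicate 2. Dkc1, the pseudouridine synthase dyskerin, averaged 21.2 FPKM with ILA and 39.5 FPKM with vehicle (-0.87, adjusted p = 7.9e-06), and 38.7 FPKM with GSK805 against the same vehicle level (-0.04, adjusted p = 0.82). Ncl, which encodes nucleolin, fell by 0.71 with ILA (adjusted p = 5.7e-07), and Myc, which activates many of these genes, by 0.36 (adjusted p = 0.0037); neither was called with GSK805. With GSK805, Sbds, which helps release Eif6 from the large subunit, fell by 0.26, and Heatr3, which helps import Rpl5 and Rpl11, rose by 0.22 (adjusted p = 0.0082 and 0.0056). Ubtf, a factor of RNA polymerase I, was the gene higher with ILA (0.21, adjusted p = 7.3e-04), though not after median centring (adjusted p = 0.13). With both compounds against ILA 25 of the 34 were higher and 0 lower, where 9.92% of all tested genes were higher and 8.64% lower. The median of the 34 was 0.26, the opposite sign to the 77 ribosomal protein genes in that comparison (-0.14).

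Initiation factors outside the TOP list were mostly lower with ILA as well. Of 25, 23 were lower and 1 higher with ILA (median -0.38), 7 lower and 2 higher with GSK805 (median -0.10), and 23 lower and 1 higher with both compounds (median -0.31). These are 92% and 4% with ILA, 28% and 8% with GSK805, and 92% and 4% with both compounds. Of all tested genes 24% were lower and 33.9% higher with ILA, 7.08% and 15.7% with GSK805, and 20.3% and 31.8% with both. Eif6, an anti-association factor of the large subunit, and Eif4e, the cap-binding protein, fell with ILA by 0.77 and 0.57 (adjusted p = 4.9e-08 and 3.2e-07), and Eif4e was at -0.14 with GSK805 (adjusted p = 0.0234), which did not pass without vehicle replicate 2 or 3 or GSK805 replicate 1 or 2 (adjusted p from 0.0584 to 0.0763). Eif3g, a subunit of the scaffold factor, fell with GSK805 by 0.22 (adjusted p = 0.0096). After median centring 16 of the 25 were lower with GSK805, where 1648 of all 13511 tested genes were. As deposited, the 7 lower became 4 without GSK805 replicate 1, and the 2 higher became 1 when any single library other than vehicle replicate 1 was left out. Eif4ebp2, an inhibitor of Eif4e, was higher with ILA, GSK805 and both compounds, by 0.21, 0.17 and 0.32 (adjusted p = 3.1e-04, 0.0047 and 1.5e-05), the first pair not after median centring (adjusted p = 0.0849 and 0.0707).

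Genes of the mTORC1 pathway moved both ways. Of 17 tested genes 7 were higher and 7 lower with ILA, 4 higher and 2 lower with GSK805, and 5 higher and 4 lower with both compounds. These are 41.2% and 41.2% with ILA, 23.5% and 11.8% with GSK805 and 29.4% and 23.5% with both, where 33.9% and 24%, 15.7% and 7.08%, and 31.8% and 20.3% of all tested genes were higher and lower. The 7 higher with ILA became 3 without ILA replicate 2, and 4 without ILA replicate 1, vehicle replicate 2 or vehicle replicate 3. After median centring the counts with ILA, GSK805 and both compounds were 3 higher and 10 lower, 3 and 3, and 2 and 10. Rps6kb2, an S6 kinase, was higher with ILA, GSK805 and both compounds by 0.60, 0.30 and 0.75 (adjusted p = 9.1e-07, 0.0012 and 2.1e-07), as was Tsc2, an inhibitor of the pathway (0.34, 0.30 and 0.44; adjusted p = 0.0012, 0.0088 and 2.5e-04), though the calls of Tsc2 with each compound alone were lost once length and GC trends were removed (adjusted p = 0.179 and 0.152). Ddit4, a stress-induced inhibitor, rose with ILA by 0.81 (adjusted p = 1.7e-06) and was at -0.25 with GSK805 (adjusted p = 0.0232), which did not pass without vehicle replicate 2 or 3 or GSK805 replicate 2 or 3 (adjusted p from 0.068 to 0.0861). Sesn2, a leucine sensor upstream of the pathway, fell with ILA and GSK805 by 0.70 and 0.21 (adjusted p = 7.2e-08 and 0.0041). Larp1, the TOP-binding protein, fell with ILA by 0.16 (adjusted p = 0.0057) and was not called with GSK805 (0.08, adjusted p = 0.21). Messenger levels say nothing of kinase activity, which was not measured.

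Few mitochondrial ribosomal protein genes were called with GSK805. Of 77 such genes 3 were higher and 2 lower with GSK805, with a median of 0.01 and at most 7 lower under the other scalings, against 16 higher and 22 lower with ILA and 15 higher and 14 lower with both compounds. With GSK805 these are 3.90% and 2.60%, where 15.7% and 7.08% of all tested genes were higher and lower. With ILA they are 20.8% and 28.6%, where 33.9% and 24% of all tested genes were higher and lower. With both compounds they are 19.5% and 18.2%, where 31.8% and 20.3% were. The 16 became 9 without vehicle replicate 1, and the 14 became 8 without vehicle replicate 2. The 2 lower with GSK805 ranged from 1 to 4 without single libraries. Mrpl42 had the largest rise with GSK805, averaging 6.38 FPKM with GSK805 and 4.39 FPKM with vehicle (0.46, adjusted p = 0.0080), while Mrps22 was lowest at -0.30, a call lost without single libraries, among them vehicle replicate 2 (adjusted p = 0.0415 and 0.147). With ILA, Mrps5 rose by 0.69 and Mrps28 fell by 0.82 (adjusted p = 4.4e-07 and 9.9e-06).

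**Figure D5:**
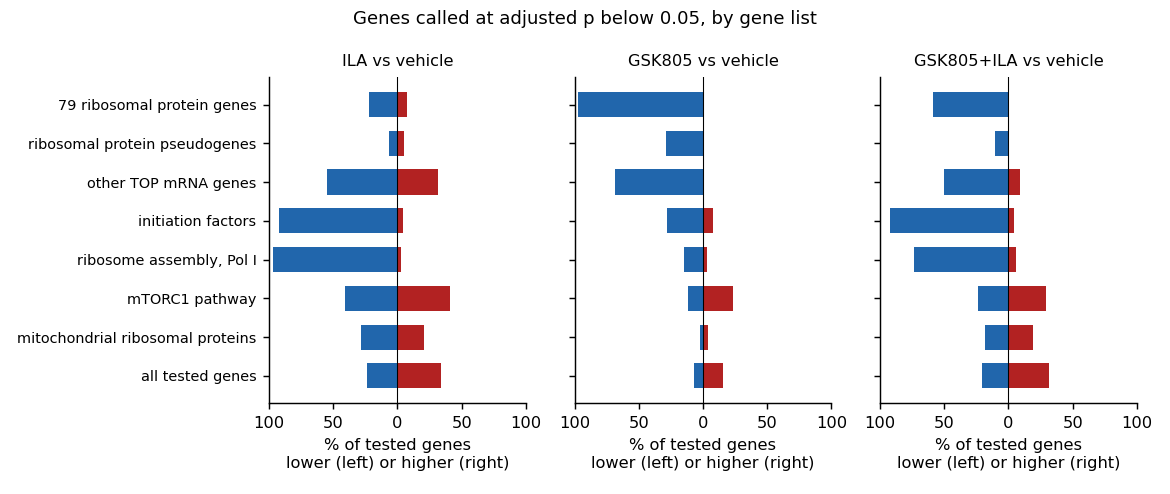
Percent of the tested genes of each list called lower (blue, to the left) or higher (red, to the right) at an adjusted p below 0.05, for ILA, GSK805 and both compounds against vehicle. The ribosomal protein genes stand out in the GSK805 panel with 75 of 77 lower, the assembly genes in the ILA panel with 33 of 34 lower.

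The libraries differed in ways that bear on these values. Recovered depth ran from 17.8 to 23.5 M reads, and the 79 genes took 1.20 to 1.64 M of them. The summed FPKM of 10 T cell and Th17 markers was 754 to 799 with ILA, 539 to 588 with GSK805, 459 to 487 with both compounds and 1384 to 1676 with vehicle, with Il17a averaging 109 FPKM with GSK805 and 756 FPKM with vehicle; its part in the ribosomal protein result was not tested. Cd4 averaged 117, 39.7, 87.8 and 42.4 FPKM with ILA, GSK805, both compounds and vehicle. Markers of other cells were low: the summed level of 3 B cell markers in the files was 1.42 to 2.81 FPKM, of 3 CD8 T and NK markers 1.20 to 5.23 FPKM and of 5 myeloid markers 6.77 to 12.5 FPKM over the 12 libraries. Myeloid markers summed to 10.7 to 12.3 FPKM with ILA, 6.81 to 7.59 with GSK805, 9.79 to 12.5 with both compounds and 6.77 to 8.11 with vehicle, mainly Cd68; Pecam1 averaged 10.6, 3.51, 6.75 and 4.44 FPKM and Cd8b1 1.27, 4.02, 1.70 and 4.06 FPKM in the same order of groups, and their part was not tested either. Red cell genes appeared in ILA replicate 2, with Hbb-bs at 23.3 FPKM and Hba-a1 at 18.2 FPKM, and were at or near 0 in the other 11 libraries. Without that library ILA gave 4 higher and 11 lower genes against vehicle, both compounds against ILA 29 lower genes, and the interaction 6 genes.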

How the data were processed

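RNA-seq libraries from 12 cultures were deposited as 1 table each of FPKM per gene, which the authors made from reads; per the submitters' processing notes FastQC 0.11.2, Bowtie and the mm10 genome were used, and the sources used here name no counting program, annotation or strand setting. FPKM values times GENCODE vM21 exon lengths came out within 0.1 of whole reads for 98.7% to 98.8% of values below 1000 reads, which gave the depth of each library, 17.8 to 23.5 M reads.

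Values were analysed as log2(FPKM + 1). The 13511 genes whose mean reached 1 FPKM in some group were fitted in limma 3.58.1 (R 4.3.3) over all 12 libraries, with moderated variances (trend and robust options) and 6 contrasts, the last being the interaction of ILA and GSK805; p-values were adjusted by Benjamini-Hochberg over all 13511 genes, and 0.05 was the threshold. All adjusted p-values in the text are from these limma fits. The procedure was also run on simulated data, with genes varying independently and changes seeded in the GSK805 group only. That simulation held no shifts shared by many genes of a library, so it cannot speak for the counts reported above. Python 3.11.15, numpy 2.4.6, pandas 2.3.3 and matplotlib 3.10.9 were used for summaries and figures.

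The ribosomal protein genes and all lists were chosen with earlier results of these data known. Named genes were a fixed roster of 20 genes, the 3 most abundant genes, the genes under the filter, and for each contrast the 5 highest and 5 lowest log2 fold changes among genes reaching 10 FPKM in a group (3 and 3 for the interaction), with at least the extremes of the other lists; further genes were chosen after their values were seen, and some genes of the rule and lists are not reported here. Promoters were taken from RefSeq (GRCm38.p6). Alternatives were quantile normalization, centring on the median gene, scaling to the other genes, removal of length and GC trends, a pseudocount of 0.1, a filter set at 5 FPKM or left out, limma without trend and robust options, a replicate block, only the compared groups, and leaving out each library. Centring on the other genes of at least 100 FPKM, summing genes with their copies, and shares of recovered reads were added after the data were seen.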

Additional observations from a re-analysis of the deposited data

Results flagged for a closer look

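The effect of GSK805 differed with and without ILA for 29 of the 77 ribosomal protein genes by the test of that difference (limma interaction, adjusted p below 0.05). Each had a higher log2 fold change when ILA was present, which was a smaller fall or, as for Rps29, no fall. Among the genes named by rule, the difference of the 2 log2 fold changes was 0.20 for Rplp1, 0.28 for Rplp2, 0.20 for Rpsa, 0.28 for Rps27, 0.19 for Rpl5, 0.26 for Rpl10, 0.29 for Rpl38, 0.45 for Rps29, 0.46 for Rpl21 and 0.41 for Rps28. Rpl10 and Rpl38 kept the call in every fit without 1 library, whereas Rplp1, Rplp2, Rpsa, Rps27, Rpl5, Rps29, Rpl21 and Rps28 lost it in 5 to 11 of the 12 such fits. Rpl21 summed with its copies was not called (0.33, adjusted p = 0.689).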

How the results depend on the processing

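FPKM has no fixed total, each group has 3 libraries, and several changes are small enough for the scaling to set their sign; depth limits Rpl3l, Rpl39l and Rpl24, at 0 to 50 reads a library. Beside the values as deposited, ILA against vehicle gave 6 higher and 17 lower ribosomal protein genes; higher genes numbered 16 with centring on the other genes of at least 100 FPKM, 1 with centring on the median gene, 1 with length and GC trends removed, 2 without trend and robust moderation, 2 with no filter and 29 after quantile normalization, and lower genes 40 with median centring (median log2 fold change -0.15) and 30 with length and GC trends removed. For GSK805 against vehicle, quantile normalization gave 42 lower genes and a median of -0.14. For both compounds against vehicle, higher genes numbered 1 with centring on the other genes of at least 100 FPKM and 4 after quantile normalization, and lower genes 73 with median centring (median -0.29) and 16 after quantile normalization (median -0.019). For both compounds against GSK805, median centring gave 28 higher genes, and for both compounds against ILA quantile normalization gave 1 higher and 18 lower. For the interaction, called genes numbered 46 with median centring, 11 without trend and robust moderation and 6 with no filter, where 1067 of all genes were called against 1871; quantile normalization gave 8 higher and 1 lower, with a median of 0.085. The causes of these shifts were not tested. Among all tested genes the share of calls that were higher was 58.6%, 68.9% and 37.2% for ILA, GSK805 and the interaction as deposited and 40.9%, 40.3% and 63.2% after median centring.

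Named genes that changed sign and were called in either fit did so after quantile normalization with 2 exceptions. With ILA these were Rplp0 (0.31), Rpl5 (0.13) and Rpl3 (0.13); with GSK805 Rps2 (0.0064), Rpl8 (0.038) and Rpl7a (0.014); with both compounds against vehicle Rplp0 (0.21), Rplp1 (0.10), Rpl5 (0.045), Rpl38 (0.0089) and Rpl3 (0.030); with both against GSK805 Rpsa (-0.0059) and Rps26 (-0.019); in the interaction Rpsa (-0.0071), Rpl5 (-0.015) and Rps26 (-0.16). The exceptions were Rpl11 with ILA after median centring (-0.017) and Rpl21 with GSK805 when summed with its copies (0.027). Of 3576 alternative values of named genes 3208 kept direction and call, 69 changed sign without being called in either fit, 200 lost the call, 81 gained it, and 18 changed sign with a call, those listed here.

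The share of FPKM held by the genes with ILA, GSK805, both compounds and vehicle was 16.6%, 13.9%, 15.3% and 16.8% without the 50 most abundant other genes and 7.46%, 6.01%, 6.74% and 7.55% of recovered reads; the planned share with ribosomal proteins of other symbols added is not reported here.

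Leaving out 1 library at a time, the ribosomal protein genes higher and lower ranged over 1 to 12 and 11 to 22 with ILA (median log2 fold change -0.06 to 0.01), 0 to 0 and 72 to 75 with GSK805 (-0.37 to -0.31), 0 to 1 and 34 to 56 with both compounds against vehicle (-0.19 to -0.11), 35 to 54 and 1 to 2 against GSK805 (0.15 to 0.21), 0 to 1 and 14 to 37 against ILA (-0.16 to -0.10), and 5 to 42 and 0 to 0 in the interaction (0.18 to 0.24). The calls over all genes ranged over 7114 to 7781, 2098 to 2998, 6304 to 7033, 4423 to 5364, 1596 to 2581 and 1195 to 1969 for the same contrasts. The share of FPKM ranged over 13.5% to 13.7% with ILA, 11.5% to 11.7% with GSK805, 12.4% to 12.7% with both and 13.6% to 14.0% with vehicle. Where a group was left with 2 libraries it was assumed to vary like the other groups. The libraries that moved a count of ribosomal protein genes from 5 or more by over 1.5 times are named beside it in the results. Of the calls over all genes, 2507 for both compounds against ILA became 1596 without replicate 3 of the combination, and 1871 for the interaction became 1206 without GSK805 replicate 1, 1195 without replicate 3 of the combination and 1229 without vehicle replicate 3.

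Same-numbered libraries deviated together little: their correlations ran from -0.08 to 0.08, with 0 of 18 over 0.1. Of 12 libraries, 6 correlated best with their own number. Such small correlations, on groups of 3 libraries, cannot tell whether same-numbered libraries shared an animal or a batch. With the replicate block 75 genes were lower with GSK805, 8 higher and 17 lower with ILA, 46 lower with both compounds against vehicle, 50 higher and 2 lower against GSK805, 31 lower against ILA, and 28 called in the interaction. Summed with copies, the counts were 75 lower with GSK805, and 9 higher and 14 lower with ILA.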
